A study of Homo sapiens with 12 samples.

Results

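Genome-wide mRNA levels were compared directly between 2 siRNAs that target the same gene, MED26, in HEK293T, an established line from human embryonic kidney with the large T antigen of SV40. The comparison asked what differs between a weaker knockdown, with s18075, and a stronger one, with s18074. It used the 3 arrays of s18075 and the 3 of s18074, 6 of the 12 Affymetrix arrays of the series. The other 6 are the 3 arrays of non-targeting control siRNA and the 3 of a further MED26 siRNA, s18076. They entered no test and are given as levels. Every group received 25 nM siRNA with X-tremeGENE reagent, RNA was harvested after 48 hours and 300 ng of it was labelled. The siRNAs were Ambion products. The control arrays are titled as 1 group, while their labels name the non-targeting siRNAs #2, #3 and #4 and the protocol names #2. All groups are the same cell line and all received siRNA, so none of them is an untransfected state. Replicates are numbered in the labels, with no word on whether each came from its own culture. The p-values therefore measure only array-to-array spread, and some of it may be technical. Of 19775 genes with a probe set of their own, each was read from its brightest one over all 12 arrays, and a difference is the mean log2 intensity with s18075 minus that with s18074.

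MED26 belongs to Mediator, a complex that passes signals from transcription factors to RNA polymerase II, and it is known for recruiting elongation factors to the polymerase. An siRNA is a short RNA duplex whose guide strand directs Argonaute to cut a matching transcript. It can also lower other transcripts through partial pairing, most often at their 3′ ends. A pair of siRNAs against 1 gene therefore shares the intended target but not the guide sequence. The sequences of these siRNAs were not used here, and matches between them and the genes below were not tested.

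The arrays had median intensities from 72.3 to 73.8, and any pair of the 6 compared arrays correlated at 0.996 to 0.999. The number of arrays limits the precision of every value. Markers of HEK293T cells (VIM, TUBB3, NEFM, NEFL, EYA1, PAX2 and LHX1) summed to intensities of 19348 to 22004 with s18074 and 17643 to 20890 with s18075, and 1 of the 7, EYA1, was called. Fibroblast markers summed to 695 to 793 with s18074 and 765 to 799 with s18075 over 8 genes, blood cell markers to 338 to 402 and 368 to 402 over 6, and carcinoma line markers to 803 to 826 and 749 to 819 over 8. Limma called none of the fibroblast, blood or carcinoma markers (0, 1 and 2 had an unadjusted p under 0.05). Kidney epithelium markers summed to 512 to 531 with s18074 and 552 to 612 with s18075 over 7 genes, with SLC12A1 called. Their part in the results was not tested. In bulk RNA, fewer cells of a type and less RNA per cell cannot be told apart. The arrays numbered replicate 1 shared deviations across groups, so values within replicate 1 and within replicates 2 and 3 are given for MED26 and some of the other genes, and counts of calls in replicates 2 and 3 for most gene lists.

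MED26 was less depleted with s18075 than with s18074 on its brightest probe set. Its brightest probe set read 8.79, 8.69 and 8.76 (log2 intensity) in the s18074 arrays and 9.41, 9.16 and 9.28 in the s18075 arrays. The s18075 level was higher by 0.54 ± 0.07 (SE; limma, Benjamini-Hochberg adjusted p = 0.00764), or 1.45-fold. All 3 s18075 arrays lay above all 3 s18074 arrays, and the exact two-sided permutation test over 20 splits gave p = 0.1, the smallest that 3 arrays against 3 allow. The control arrays, at 9.84, 9.87 and 9.84, lay above both groups, and the s18076 arrays, at 8.80, 8.79 and 8.73, lay with s18074. Within replicate 1 the difference was 0.62, and within replicates 2 and 3 it was 0.49 (limma, adjusted p = 0.0526). A dimmer MED26 probe set read 6.18, 5.92 and 5.75 with s18074 and 6.59, 6.34 and 6.63 with s18075. These arrays did not overlap either, but the difference of 0.57 ± 0.12 had an adjusted p of 0.0676 over all probe sets (limma). The control arrays of this probe set read 6.45, 6.17 and 6.04, and their mean of 6.22 lay below the s18075 mean of 6.52. The dimmest MED26 probe set differed by -0.19 ± 0.14 and its arrays overlapped. Its control mean, 5.38, lay below that of every MED26 siRNA. Only on the brightest probe set did the s18075 mean lie below that of the controls. Averaged over the 3 probe sets, MED26 differed by 0.30 and was not called.

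MYC, a proto-oncogene that drives cell growth and ribosome production, read 9.68, 9.57 and 9.63 with s18074 and 9.94, 9.63 and 9.86 with s18075. The arrays overlapped, and the difference of 0.18 ± 0.09 did not pass the test (limma, adjusted p = 0.307). Both siRNAs lay below the control arrays, at 10.81, 10.53 and 10.20. Among 34 MYC target and ribosome biogenesis genes, limma called 0 in either direction (7 had an unadjusted p under 0.05). Their median difference was 0.09, against 0.02 over all genes tested.

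**Figure D1:**
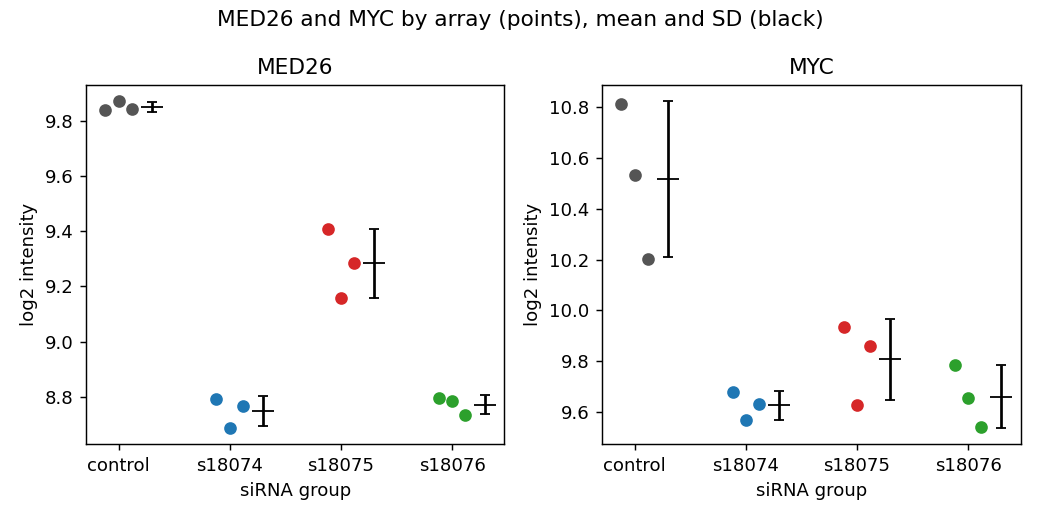
Log2 intensity of MED26 (left) and MYC (right) in each of the 12 arrays, by siRNA group, with the group mean and SD in black. The signal of the brightest MED26 probe set with s18075, at 9.16 to 9.41, lies between the control arrays and those of s18074 and s18076. The MYC values of s18074 and s18075 overlap.

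At a Benjamini-Hochberg adjusted p under 0.05 (limma), 919 of 19775 genes differed between the siRNAs, 4.65% of those tested. An unadjusted p under 0.05 was reached by 3717 genes (18.8%). Of the 919, 375 were higher with s18075 (1.9%) and 544 lower (2.75%). The large differences were mostly on the lower side: 187 genes were lower and 56 higher by at least 0.5 on the log2 scale, and 23 were lower and 2 higher by at least 1. The median size among called genes was 0.38. In every called gene the 3 arrays of one siRNA lay apart from the 3 of the other, as they did in 25.3% of all genes tested. The genes nearest the threshold were EXTL2 inside it, at 0.22 (adjusted p = 0.0499), and SETD7 outside it, at -0.25 (adjusted p = 0.0501). Leaving out any 1 of the 6 arrays left 367 to 607 called genes, with the fewest, 367, without s18075 replicate 3. The other counts were 394 without s18074 replicate 3, 398 without s18074 replicate 2, 417 without s18075 replicate 2, 572 without s18074 replicate 1 and 607 without s18075 replicate 1. The arrays of replicates 2 and 3 alone called 298 genes (1.51%), and 294 of the 298 had the same sign in the replicate 1 arrays, which that fit did not use. The same held for 65.8% of all genes.

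**Figure D2:**
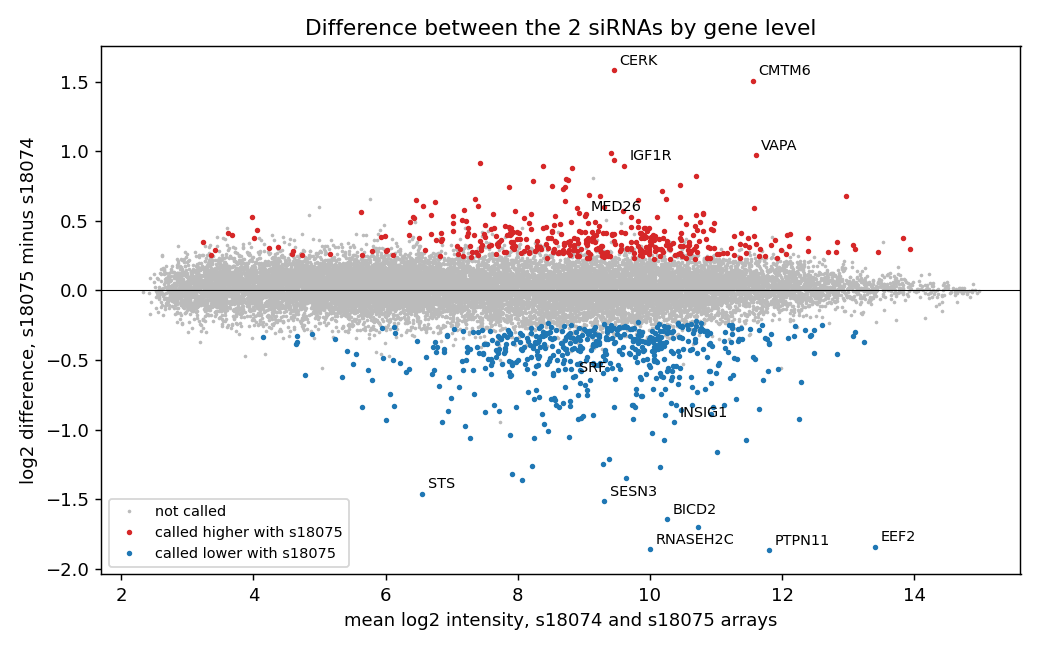
Log2 difference, s18075 minus s18074, against the mean log2 intensity of the 6 arrays for each of 19775 genes; 375 genes called higher are red, 544 called lower are blue and the rest grey. The 23 called genes below -1 outnumber the 2 above 1, CERK and CMTM6.

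The 15 largest differences on the lower side lay between -1.16 and -1.87, and each of these genes was called, also with any 1 array left out. PTPN11, which encodes the phosphatase SHP2 that links receptor tyrosine kinases to RAS and ERK, read 12.71, 12.79 and 12.70 with s18074 and 10.88, 10.88 and 10.84 with s18075. That left 27.4% of the s18074 signal, a difference of -1.87 ± 0.05 (limma, adjusted p = 1.35e-05), with -1.83 in replicate 1 and -1.88 in replicates 2 and 3. RNASEH2C, a subunit of the RNase H2 enzyme that removes RNA paired to DNA, read 10.86, 10.95 and 10.99 with s18074 and 8.95, 9.13 and 9.15 with s18075 (-1.86 ± 0.07). In both genes the groups lay far apart relative to their spread.

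EEF2, the elongation factor that moves the ribosome along the mRNA, read 14.34, 14.25 and 14.39 with s18074 and 12.62, 12.43 and 12.42 with s18075 (-1.84 ± 0.07). TIMMDC1, an assembly factor of respiratory complex I, read 11.54, 11.61 and 11.57 against 9.85, 9.91 and 9.87 (-1.70 ± 0.05). BICD2, an adaptor that ties cargo to the motor dynein, read 11.05, 11.09 and 11.09 against 9.37, 9.50 and 9.44 (-1.64 ± 0.06). Between 27.9% and 32.0% of the s18074 signal was left in these 3 genes. SESN3, a sestrin that restrains mTORC1 signalling, read 10.06, 10.03 and 10.10 with s18074 and 8.64, 8.56 and 8.46 with s18075 (-1.51 ± 0.06). STS, the steroid sulfatase, read 7.15, 7.36 and 7.36 against 5.80, 5.59 and 6.10 (-1.46 ± 0.13). STS had the widest spread of the 15 and the highest adjusted p among them, 0.00106.

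The rest of the 15 were a mix of receptors, enzymes and RNA-binding factors. F2R, the thrombin receptor PAR1, read 8.74, 8.82 and 8.68 with s18074 and 7.40, 7.28 and 7.47 with s18075 (-1.36 ± 0.07). MGRN1, a ubiquitin ligase, read 10.21, 10.32 and 10.41 against 8.92, 9.07 and 8.92 (-1.34 ± 0.07). INVS encodes inversin, a protein of the primary cilium, and read 8.49, 8.58 and 8.65 against 7.28, 7.21 and 7.28 (-1.32 ± 0.06). No array of one siRNA reached the range of the other in these genes, which their choice required. HNRNPLL, a splicing regulator, differed by -1.27 ± 0.06, FGFRL1, an FGF receptor without a kinase domain, by -1.26 ± 0.09 and CDS1, which makes CDP-diacylglycerol, by -1.24 ± 0.07. FKBP15, an FK506-binding protein family member, differed by -1.21 ± 0.07 and RRP36, a factor of ribosomal RNA processing, by -1.16 ± 0.06.

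Other probe sets of these genes gave further readings. Of the 15 genes, 13 had further single-gene probe sets, and in 9 at least 1 of them was also called lower (limma, over all probe sets), with 0 called the other way. The other EEF2 probe set gave -2.29 ± 0.10, of the others for BICD2 the largest gave -1.60 ± 0.06 and that of RRP36 gave -1.41 ± 0.06. PTPN11 gave -2.09 ± 0.40 and -0.89 ± 0.07 on further called probe sets. For RNASEH2C the other probe set gave a smaller difference, -0.49 ± 0.07. None of 6 further SESN3 probe sets was called, at -0.42 to -0.01, nor either of 2 for INVS. The single others of F2R and FGFRL1 gave 0.03 ± 0.09 and -0.23 ± 0.21. The suffix _s or _x on the probe sets of EEF2, TIMMDC1, BICD2, STS, F2R, HNRNPLL and FGFRL1, and of VAPA and TRMT11 below, marks probes that may be shared between transcripts.

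On the higher side the 15 largest differences lay between 0.75 and 1.58. CERK, the kinase that phosphorylates ceramide, read 8.71, 8.59 and 8.69 with s18074 and 10.31, 10.24 and 10.20 with s18075, 1.58 ± 0.06 higher (limma, adjusted p = 2.42e-05), with 1.60 in replicate 1 and 1.58 in replicates 2 and 3. The s18075 arrays overlapped the control arrays, which read 10.23, 10.29 and 10.24. CMTM6, a membrane protein that keeps PD-L1 at the cell surface, read 10.83, 10.83 and 10.77 with s18074 and 12.38, 12.26 and 12.31 with s18075 (1.51 ± 0.06). The control arrays of CMTM6 read 12.02, 12.18 and 12.07. CERK and CMTM6 were thus 3.00-fold and 2.84-fold higher with s18075 than with s18074, with the groups far apart in both.

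After these, the sizes dropped below 1. UQCC6, an assembly factor of respiratory complex III, read 8.93, 8.89 and 8.95 with s18074 and 9.86, 9.96 and 9.91 with s18075 (0.99 ± 0.05). VAPA, which tethers the endoplasmic reticulum to other membranes, read 11.17, 11.15 and 11.03 against 12.11, 12.05 and 12.11 (0.97 ± 0.06). IGF1R, the receptor of insulin-like growth factor 1, read 9.12, 9.16 and 9.22 against 10.03, 10.13 and 10.03 (0.90 ± 0.06). The arrays of the siRNAs did not overlap in any of them, which the choice of these genes required. SWAP70, an actin-linked signalling protein, differed by 0.94 ± 0.06, MPPED2, a metallophosphoesterase, by 0.92 ± 0.10 and PGAP1, which remodels GPI anchors, by 0.89 ± 0.07. LIN52, a subunit of the DREAM complex that represses cell cycle genes, differed by 0.88 ± 0.08, TRMT11, a tRNA methyltransferase, by 0.82 ± 0.05 and the vesicle traffic GTPase gene RAB8B by 0.80 ± 0.06. FKBP14, a collagen-folding prolyl isomerase, differed by 0.80 ± 0.14, TEAD2, a transcription factor of the Hippo pathway, by 0.79 ± 0.06, PHTF2 by 0.76 ± 0.07 and CDC37L1, an HSP90 co-chaperone, by 0.75 ± 0.07. FKBP14 spread widely, at 8.04, 8.64 and 8.42 with s18074 and 9.09, 9.26 and 9.14 with s18075, and was called in 2 of the 6 fits with 1 array left out. The other 14 were called in every one of these fits.

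Of these 15 genes, 13 had further probe sets, and in 8 at least 1 was also called higher, with 0 called lower. Of 3 further CMTM6 probe sets 2 were called, and the other one of UQCC6 gave 0.58 ± 0.06. For IGF1R none of 4 others was called (0.01 to 0.25), and for PGAP1 they ran from -0.47 to 0.37. SWAP70, MPPED2, TEAD2 and PHTF2 also had others but none called.

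**Figure D3:**
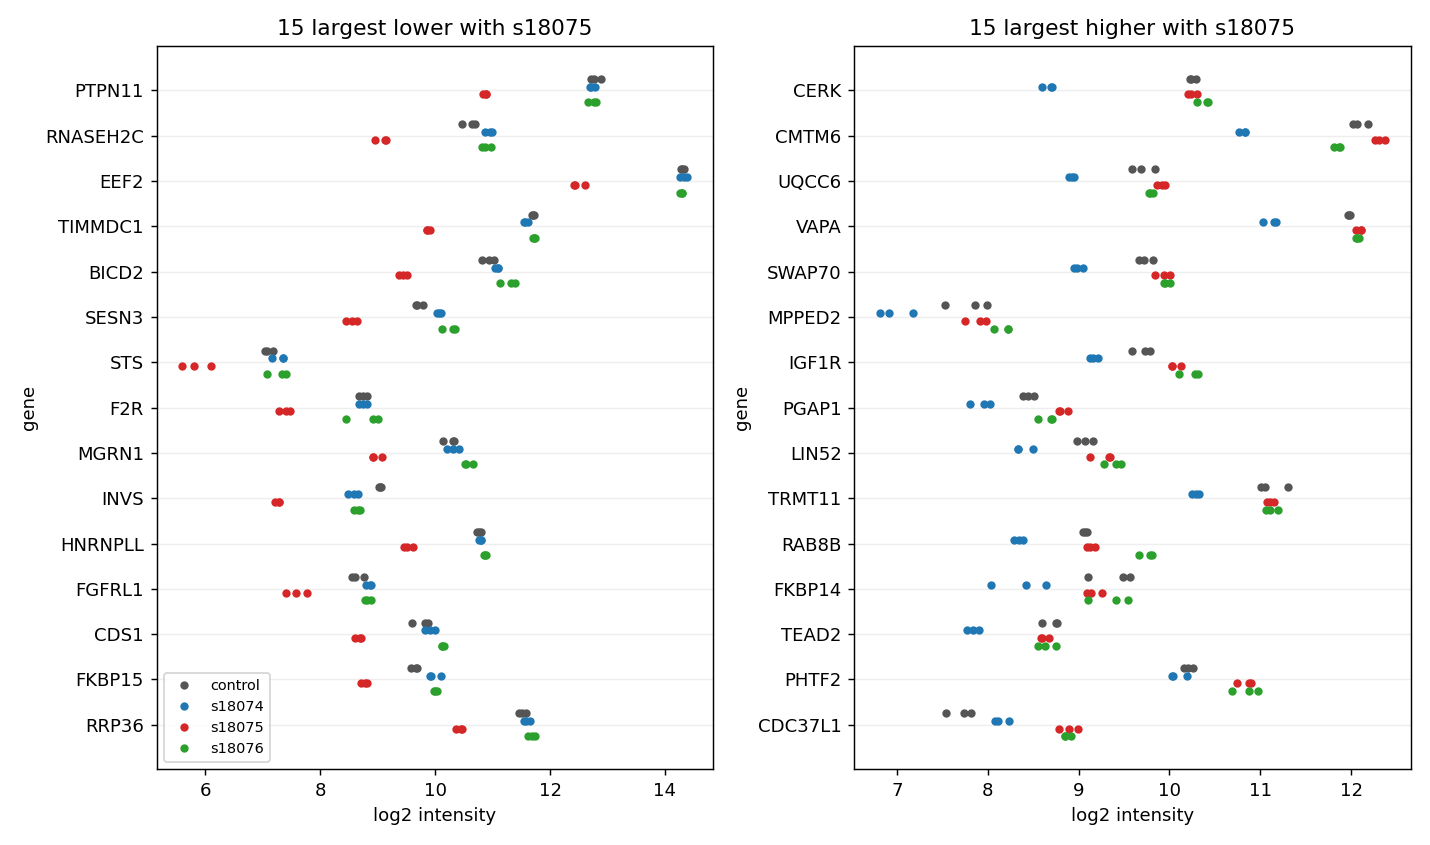
Log2 intensity in each of the 12 arrays for the 15 genes with the largest differences lower (left) and higher (right) with s18075; 3 points per siRNA group, 1 row per gene. In the left panel s18075 stands apart below the other 3 groups, and in the right panel s18074 stands apart below in most rows, except PHTF2 and CDC37L1, where the control arrays lie with or below s18074.

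The control and s18076 arrays show which of the 2 siRNAs lay farther from them. In all 15 genes of the lower side, both the control mean and the s18076 mean lay nearer to s18074 than to s18075. On the higher side the s18076 mean lay nearer to s18075 in all 15 genes and the control mean in 13, so in those 13 s18074 was the farther one. The control could still lie between the siRNAs. IGF1R differed from it by -0.53 with s18074 and 0.36 with s18075, and PGAP1 by -0.51 and 0.38. Over all 544 genes lower with s18075, control and s18076 both lay nearer s18074 in 359, or 66.0%, against 32.3% of all genes tested. Over the 375 genes higher with s18075, both lay nearer s18075 in 131, or 34.9%, against 23.9% of all genes, and both lay nearer s18074 in 102, or 27.2%, against 32.3%. Among differences of at least 0.5 these shares were 82.9% of 187 lower genes and 62.5% of 56 higher ones. In 8 of the 56 (14.3%) both lay nearer s18074, with s18075 above them.

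**Figure D4:**
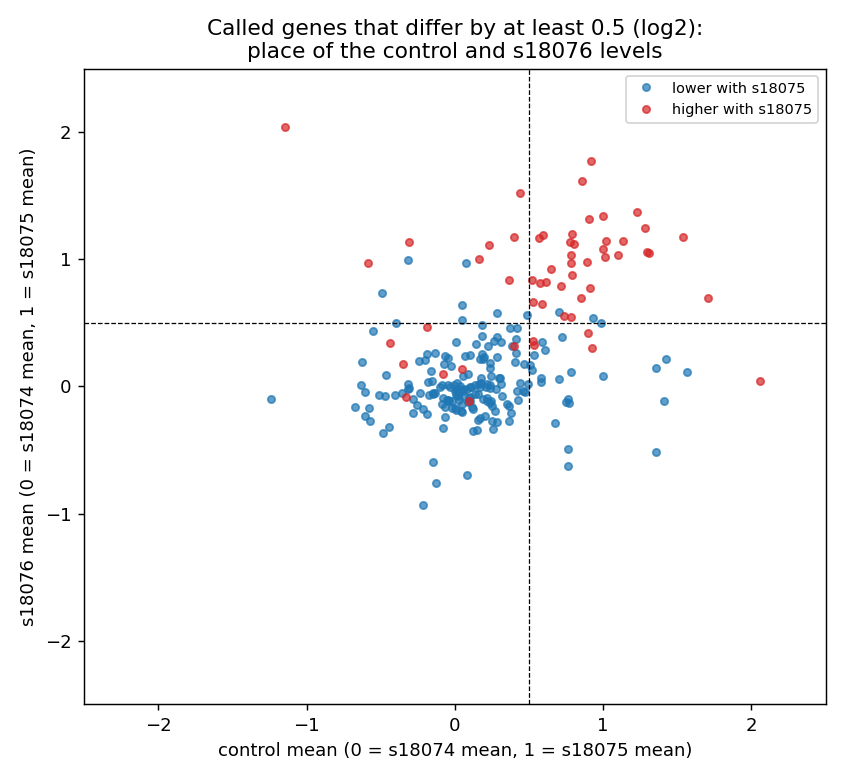
Place of the control mean (horizontal axis) and the s18076 mean (vertical axis) on a scale where the s18074 mean is 0 and the s18075 mean is 1, for the 243 called genes that differ by at least 0.5 (log2); dashed lines mark the midpoint. Most of the 187 genes lower with s18075 (blue) lie near 0 on both axes, and most of the 56 higher genes (red) lie nearer 1 on both.

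In some genes all s18074 and s18076 arrays lay on one side of all control and s18075 arrays. On the higher side this held for 66 called genes, MED26 among them, which is 17.6% of those called, and for 369 (1.87%) of all genes tested. On the lower side it held for 148 called genes, 27.2% of those called, and for 434 (2.19%) of all genes tested. Since a called gene already has s18074 and s18075 apart, part of this order is set by the call itself. In 28 of the 66 and 41 of the 148 the s18075 mean also lay between those of control and s18074, as it did for MED26. In the rest, most of these called genes, it did not. The matching share over all genes tested was not counted. The genes named here from the 28 and the 41 were chosen after their values were seen. TCEA2, a tissue-restricted form of elongation factor TFIIS whose N-terminal domain resembles that of MED26, read 7.98, 7.91 and 8.05 with s18074, 8.50, 8.38 and 8.39 with s18075 and 8.63, 8.75 and 8.54 in the controls. It differed by 0.44 ± 0.06 between the siRNAs (limma, adjusted p = 0.00791). Its s18076 arrays read 8.36, 8.03 and 8.19, the highest of them just below the lowest s18075 array, at 8.38. Neither of 2 further TCEA2 probe sets was called, at 0.23 ± 0.07 and -0.06 ± 0.09. In replicates 2 and 3 alone TCEA2 was not called (limma, adjusted p = 0.0712). CBX6, a Polycomb chromobox protein, differed by 0.39 ± 0.05, CITED1, a CBP/p300-binding co-regulator, by 0.38 ± 0.05 and ENOX1 by 0.41 ± 0.07. DNAJC12, PROK2 and MRI1, which encode a J-domain protein, a secreted peptide and an enzyme of methionine salvage, differed by 0.37, 0.36 and 0.36. PROK2 was called in 0 of the 6 fits with 1 array left out, DNAJC12 and MRI1 in 1 each and ENOX1 in 3. CBX6 and CITED1 were called in all 6. No further probe set of CBX6, DNAJC12 or MRI1 was called.

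Among the 41 lower genes, the largest difference was in SPOPL, a substrate adaptor of cullin 3 ubiquitin ligases. It read 10.12, 10.20 and 10.15 with s18074, 9.30, 9.33 and 9.37 with s18075, and 8.98, 9.02 and 8.99 in the controls. The difference was -0.82 ± 0.05 (limma, adjusted p = 0.000244), and the s18076 arrays read 10.14, 10.32 and 10.29, with s18074. Others of the 41 were the ataxin gene ATXN1 at -0.52 ± 0.06, the integrin chain ITGA8 at -0.50 ± 0.08, the release factor gene GSPT2 at -0.50 ± 0.07, the chromatin protein ARID5B at -0.50 ± 0.06 and the Golgi nucleotidase ENTPD4 at -0.49 ± 0.07. FILIP1L, also among the 41, differed by -0.53 ± 0.11, and its call was lost with the replicate number as a block (limma, adjusted p = 0.0552). ITGA8 was called in 2 of the 6 fits with 1 array left out and FILIP1L in 1. SPOPL, ATXN1, GSPT2, ARID5B and ENTPD4 were called in all 6. A further SPOPL probe set was also called lower, at -0.56 ± 0.10. No further probe set of ATXN1, ARID5B, ENTPD4, ITGA8 or FILIP1L was called, and those of ATXN1 ran from -0.34 to 0.41.

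Genes that respond to growth factor signalling through ERK were mostly lower with s18075 where they differed. Of 51 ERK-responsive and immediate-early genes measured, 8 were called lower and 1 higher, 17.6% against 4.65% of all genes, while the list's median difference was -0.02. Replicates 2 and 3 alone called 4 of its genes (SRF, ATF3, EGR1 and ZFP36L1), and leaving out 1 array left 3 to 7, with 3 without s18074 replicate 3 or s18075 replicate 3. SRF, the serum response factor, read 9.09, 9.14 and 9.23 with s18074 and 8.62, 8.41 and 8.56 with s18075 (-0.62 ± 0.07, limma adjusted p = 0.00317), a difference of -0.47 in replicate 1 and -0.70 in replicates 2 and 3. EGR1, a zinc finger transcription factor and SRF target, read 7.48, 7.45 and 7.55 against 7.25, 6.96 and 7.01 (-0.42 ± 0.08). JUND, an AP-1 subunit, read 11.45, 11.15 and 11.31 against 10.89, 10.74 and 10.67 (-0.54 ± 0.09). The siRNAs did not overlap in these 3 genes, as in every called gene, and the s18074 arrays of JUND spread widely.

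The stress-induced factor ATF3 differed by -0.52 ± 0.06, ETV5, an ETS factor, by -0.48 ± 0.08 and ZFP36L1, an RNA decay factor, by -0.42 ± 0.06. With 1 array left out, EGR1 was called in 1 of 6 fits and JUND and ETV5 in 3 each. SRF, ATF3 and ZFP36L1 were called in all 6. No further probe set of SRF, EGR1, JUND, ATF3, ETV5 or ZFP36L1 was called, and those of JUND ran from -0.47 to 0.25. The AP-1 genes JUN and JUNB differed by -0.35 ± 0.07 and -0.29 ± 0.06, and with the replicate block JUNB was no longer called (limma, adjusted p = 0.0553). KLF10, a TGF-beta-induced factor, was the 1 member higher with s18075 (0.28 ± 0.05). The ERK feedback phosphatase gene DUSP6, at -0.17 ± 0.06, and the feedback inhibitors SPRY2 and SPRY4, at -0.09 ± 0.05 and -0.04 ± 0.08, did not pass the test. In SRF, JUND, ATF3, JUN and JUNB the s18076 mean lay with s18074. EGR1 read 7.53, 7.56 and 7.62 with s18076 and 7.12, 7.07 and 7.12 in the controls, so its s18075 arrays lay with the controls.

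Upstream, among 28 RAS and ERK pathway components, PTPN11 and SHC1 were lower and IGF1R higher (10.7% called, against 4.65% of all genes). SHC1, an adaptor of receptor tyrosine kinases, differed by -0.26 ± 0.05 (limma, adjusted p = 0.0324) and was called in 0 of the 6 fits with 1 array left out. The EGF receptor gene EGFR read 7.09, 8.74 and 8.77 with s18074 and 7.15, 7.25 and 7.37 with s18075. Its mean difference of -0.94 ± 0.41 did not pass the test (adjusted p = 0.265), and it rested on s18074 replicates 2 and 3.

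Promoters of called members of this list are shown because SRF acts through the CArG box, and ATF and CREB factors through TGACGTCA. Each window holds the 250 bases before the RefSeq transcription start on GRCh38.p14, 5′ to 3′ on the gene's strand, with the motif in capitals.
EGR1 (chr5:138465229-138465478, plus strand): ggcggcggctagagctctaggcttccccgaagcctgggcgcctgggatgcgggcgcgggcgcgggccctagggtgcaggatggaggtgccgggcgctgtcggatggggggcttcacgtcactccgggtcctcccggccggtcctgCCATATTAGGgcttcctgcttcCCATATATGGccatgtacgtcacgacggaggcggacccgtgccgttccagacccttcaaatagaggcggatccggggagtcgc
SRF (chr6:43171019-43171268, plus strand): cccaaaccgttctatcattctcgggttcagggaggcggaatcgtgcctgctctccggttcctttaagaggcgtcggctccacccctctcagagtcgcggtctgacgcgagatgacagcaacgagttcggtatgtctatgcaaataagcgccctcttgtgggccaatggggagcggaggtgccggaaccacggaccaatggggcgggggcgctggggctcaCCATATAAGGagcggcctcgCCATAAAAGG
JUND (chr19:18281623-18281872, minus strand): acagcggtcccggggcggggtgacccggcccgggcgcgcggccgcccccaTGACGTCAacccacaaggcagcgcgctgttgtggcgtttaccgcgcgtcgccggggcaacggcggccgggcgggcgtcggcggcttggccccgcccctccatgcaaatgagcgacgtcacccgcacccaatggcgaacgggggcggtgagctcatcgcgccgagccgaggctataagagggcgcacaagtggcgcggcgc

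The EGR1 window holds 2 CArG boxes that begin 105 and 83 bases before the start, the SRF window 2 that begin 30 and 10 bases before it, and the JUND window TGACGTCA at 200 bases. Only windows with a match are printed, and not every window with a match. Of 10 windows of 7 of the 8 genes called lower, 2 held a CArG box, 2 TGACGTCA and 6 CCAAT, and 0 held any of the other 3 motifs below. SRF has 2 windows in the table. Over 35116 RefSeq windows searched on both strands, 1.16% held a CArG box, against 1.94% of the 722 windows of genes lower with s18075 and 1.09% of the 457 windows of genes higher, with 1.16% over the 21490 windows of genes tested. For TGACGTCA the shares were 1.65%, 2.22% and 1.31%, with 2.09% over genes tested. The E-box CACGTG, searched in the same way, stood in 6.34% of all windows, 7.20% of those of lower genes and 12.7% of those of higher genes, with 7.38% over all genes tested. CCAAT stood in 32.0%, 31.4% and 30.0%, with 32.4% over genes tested. The sterol element core TCACNCCAC stood in 0.883%, 0.693% and 0.875%, with 0.847% over genes tested, and the ATF4 element core TGATGNAAT in 0.888%, 1.52% and 0.219%, with 0.633%. These motifs share letters, so a window can count under several, and a match is a description of the letters alone.

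Genes induced by p53, the DNA damage response factor, were called mainly in the other direction, but several of these calls were fragile. Of 25 measured, 5 were called higher with s18075 and 1 lower (24.0% called, against 4.65% of all genes), with a median of 0.07. Replicates 2 and 3 alone called 3, and leaving out any 1 array left 3 or 4. CDKN1A, which encodes the cell cycle inhibitor p21, read 9.40, 9.50 and 9.57 with s18074 and 9.95, 9.93 and 9.95 with s18075 (0.45 ± 0.06, limma adjusted p = 0.0058), a difference of 0.55 in replicate 1 and 0.41 in replicates 2 and 3 (limma, adjusted p = 0.0543). TIGAR, a regulator of glycolysis, differed by 0.46 ± 0.05 and the death receptor gene FAS by 0.35 ± 0.06. RPS27L and the DNA repair gene DDB2 both differed by 0.28. RRM2B, the p53-induced ribonucleotide reductase subunit, went the other way, from 9.32, 9.31 and 9.44 to 8.54, 8.78 and 8.72 (-0.68 ± 0.08). With 1 array left out, CDKN1A, TIGAR and RRM2B were called in all 6 fits. FAS was called in 1 of them and RPS27L and DDB2 in 0. None of 4 further FAS probe sets or 2 of RPS27L was called. ZMAT3, an RNA-binding p53 target, differed by 0.81 ± 0.20 without passing the test (adjusted p = 0.0681), and passed it with the replicate block (limma, adjusted p = 0.00856). HEK293T cells carry large T antigen, which binds p53.

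In the integrated stress response, which raises ATF4 when translation initiation is curbed, 4 of 38 genes were called (10.5%, against 4.65% of all genes), all lower with s18075, and the median was -0.08. Replicates 2 and 3 alone called 3, and leaving out 1 array left 2 to 5, with 2 without replicate 2 of either siRNA or s18075 replicate 3. ATF4 itself read 13.48, 13.40 and 13.39 with s18074 and 13.15, 12.97 and 13.05 with s18075 (-0.37 ± 0.06, limma adjusted p = 0.02). ATF4 was called in 1 of the 6 fits with 1 array left out. It was not called in replicates 2 and 3 alone (limma, adjusted p = 0.0628). The mTORC1 inhibitor gene DDIT4 differed by -0.51 ± 0.05, the cystine transporter gene SLC7A11 by -0.46 ± 0.07 and ATF3 by the value given above. The groups did not overlap in these genes, as in every called gene. Of 23 endoplasmic reticulum chaperone and XBP1 target genes, 4 were lower and 2 higher (26.1% called, against 4.65%). Replicates 2 and 3 alone called 1, DNAJC3, and leaving out 1 array left 1 to 5, with the 1 without s18074 replicate 2. DNAJC3, a co-chaperone that inhibits the kinase PERK, read 10.67, 10.70 and 10.64 against 9.85, 9.68 and 9.80 (-0.89 ± 0.06). The stress sensor ATF6 differed by -0.31 ± 0.06, its relative CREB3L2 by -0.33 ± 0.05 and SDF2L1 by -0.36 ± 0.06. The co-chaperone DNAJB9 and CRELD2 were higher, by 0.45 ± 0.07 and 0.37 ± 0.06, so this list did not move one way. DNAJC3 was called in all 6 fits with 1 array left out and DNAJB9 and CRELD2 in 5 each. CREB3L2 was called in 2 of them and ATF6 and SDF2L1 in 1 each. No further probe set of DNAJC3, ATF6, CREB3L2 or DNAJB9 was called. Those of ATF6 ran from -0.30 to 0.24 and those of DNAJC3 from -0.74 to 0.03.

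Few lipid genes were called. INSIG1, which holds the sterol sensor SCAP in the endoplasmic reticulum, read 10.97, 10.81 and 10.74 with s18074 and 9.95, 9.88 and 9.85 with s18075 (-0.95 ± 0.07, limma adjusted p = 0.000654), and a further probe set gave -0.71 ± 0.12. DHCR7, which makes the last step to cholesterol, was lower by -0.30 ± 0.07 and LSS, which closes the sterol rings, was higher by 0.49 ± 0.06. These were the 3 called of 27 cholesterol genes (11.1%), with 2 or 3 called without any 1 array, DHCR7 in 1 of those 6 fits. Of 22 fatty acid synthesis genes, ELOVL6, a fatty acid elongase, was lower at -0.74 ± 0.06 and GPAM, which starts glycerolipid synthesis, was higher at 0.53 ± 0.05. Of 27 ceramide and sphingolipid genes, ORMDL3, an inhibitor of the first step, was lower at -0.64 ± 0.05, CERK higher as above, and UGCG, the glucosylceramide synthase, lower at -0.25 ± 0.05, a call lost with the replicate block (limma, adjusted p = 0.0504) and with any 1 array left out. These calls were 9.09% and 11.1% of their lists, against 4.65% of all genes.

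Among the other Mediator subunits, 30 were measured, and 3 were called lower and 1 higher (13.3%, against 4.65% of all genes). CDK19, a kinase of the Mediator kinase module, read 9.13, 9.18 and 9.25 with s18074 and 8.70, 8.66 and 8.63 with s18075 (-0.53 ± 0.06, limma adjusted p = 0.00244). MED28 differed by -0.33 ± 0.06, MED11 by 0.29 ± 0.05 and MED12, of the kinase module, by -0.25 ± 0.05. The MED12 call was lost with the replicate block (limma, adjusted p = 0.0576), which called 5 subunits in all. Replicates 2 and 3 alone called 1, CDK19, and leaving out any 1 array left 1 or 2 subunits called. The list's median was 0.02, equal to that of all genes.

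Of 40 initiation factor and RNA polymerase II genes, 4 were lower and 1 higher (12.5%, against 4.65%). Replicates 2 and 3 alone called 2, and leaving out 1 array left 1 to 4, with 1 without s18074 replicate 2 or 3. TAF10, a TFIID subunit, read 12.68, 12.54 and 12.63 with s18074 and 12.08, 11.93 and 11.88 with s18075 (-0.66 ± 0.07). TAF4, also of TFIID, differed by -0.36 ± 0.06, the polymerase subunit POLR2I by -0.38 ± 0.06, the TFIIH helicase ERCC2 by -0.26 ± 0.06, and CCNH, the cyclin of the TFIIH kinase, by 0.44 ± 0.08. Elongation factors had 1 call in 38, TCEA2 (2.63%, against 4.65% of all genes). Of 21 Integrator and snRNA transcription genes, SNAPC3 alone was called, at 0.32 ± 0.06, and in 0 of the 6 fits with 1 array left out. That is 4.76% of the list, near the 4.65% of all genes.

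For several of the largest differences, the rest of the same pathway was compared. Besides EEF2, 1 of 22 translation elongation and diphthamide genes was called, EIF5A2 at -0.41 ± 0.05. Besides TIMMDC1, 3 of 49 complex I genes were called, the subunits NDUFA11 at -0.45 ± 0.06 and NDUFB10 at -0.30 ± 0.05 lower and NDUFV3 at 0.28 ± 0.05 higher. Besides BICD2, the dynactin subunits DCTN1, at -0.51 ± 0.07, and DCTN3, at -0.28 ± 0.06, were called among 32 dynein genes, DCTN3 not with the replicate block (limma, adjusted p = 0.0582). Among 32 ciliary genes INVS was lower and BBS1, of the ciliary BBSome, higher at 0.48 ± 0.06. In 40 interferon-stimulated and nucleic acid sensing genes, RNASEH2C and IRF9 were lower and IFIT5 was higher. IRF9, a transcription factor of the interferon response, differed by -0.38 ± 0.08 and was not called with the replicate block (limma, adjusted p = 0.0664). In the complex I list 8.16% were called, in the dynein list 9.38% and in the interferon list 7.5%, against 4.65% of all genes. The share was 9.09% in the translation elongation list and 6.25% in the ciliary list. NDUFB10, NDUFV3, DCTN3, IRF9 and IFIT5 were each called in 0 of the 6 fits with 1 array left out, which left 2 complex I, 2 dynein and 1 interferon gene called in every such fit. The median difference of each of these 5 lists lay between -0.03 and 0.05.

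The remaining lists had few calls, and many of these were lost with 1 array left out. No gene was called among 51 cytosolic ribosomal protein genes, 27 proteasome genes or 7 snoRNA host genes (limma; 1, 3 and 2 had an unadjusted p under 0.05). Of 41 replication-dependent histone genes, the H2B genes H2BC5, at 0.33 ± 0.07, and H2BC11, at 0.38 ± 0.08, were called higher. That is 4.88% of the list, near the 4.65% of all genes. H2BC11 was not called with the replicate block (limma, adjusted p = 0.0674), and each of the 2 was called in 1 of the 6 fits with 1 array left out and neither in replicates 2 and 3 alone. Of 42 S phase genes, CCNE1, which encodes cyclin E1, was higher at 0.29 ± 0.06 and POLE, a DNA polymerase subunit, lower at -0.26 ± 0.05, both called in 0 of those 6 fits. The 2 calls were 4.76% of the list, near the 4.65% of all genes. FOXM1, a driver of mitotic genes, was the 1 called of 40 G2 and M phase genes (2.5%), at -0.43 ± 0.06, although 32 of the 40 lay above 0. Of 33 glycolysis and hypoxia genes, the hexokinase gene HK2, at 0.48 ± 0.06, and ANKRD37, at 0.46 ± 0.06, were higher and the oxygen sensor EGLN1 lower, at -0.28 ± 0.06. EGLN1 was called in 0 of those fits. The 3 glycolysis and hypoxia calls were 9.09% of their list.

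AGO3, an Argonaute, was higher at 0.34 ± 0.06 and TNRC6A, its partner in silencing, lower at -0.29 ± 0.06 among 12 microRNA machinery genes. These 2 calls were 16.7% of the list, against 4.65% of all genes, and each rests on 1 probe set. None of 3 further AGO3 probe sets was called, at -0.22 to 0.15, nor any of 5 for TNRC6A, at -0.16 to 0.15. Of 22 BMP signalling genes, the receptor ACVR1, at -0.35 ± 0.08, and SMAD5, at -0.32 ± 0.05, were lower and the BMP antagonist NOG higher, at 0.40 ± 0.09. The 3 calls were 13.6% of the list, against 4.65% of all genes, and its median was -0.10. Leaving out any 1 array left 0 or 1 called, with 0 in replicates 2 and 3: ACVR1 was called in 0 of the 6 fits and SMAD5 and NOG in 1 each. Of 17 iron genes, the metal importer gene SLC39A14 was higher, at 0.31 ± 0.05, and SLC25A28, a mitochondrial iron importer, lower, at -0.34 ± 0.06 (11.8% called). The kinesin gene KIF5C, at 0.45 ± 0.06, and the neuronal ubiquitin hydrolase gene UCHL1, at -0.25 ± 0.05, were called among 41 REST-repressed neuronal genes. That is 4.88% of the list, near the 4.65% of all genes. BAG1, an HSP70 co-chaperone, was lower at -0.43 ± 0.07 among 21 heat-shock genes, of which the replicate block called 2. SLC7A11 was the 1 called of 20 cystine import and NRF2 genes. These calls were 4.76% and 5% of their lists, near the 4.65% of all genes. EYA1, a kidney progenitor co-activator, read 7.79, 7.94 and 7.98 with s18074 and 7.41, 7.23 and 7.26 with s18075 (-0.60 ± 0.08). SLC12A1, a dim kidney epithelium marker, differed by 0.29 ± 0.06, and the replicate block called 2 of these 7 markers. TNRC6A, UCHL1, SLC39A14 and SLC12A1 were called in 0 of the 6 fits with 1 array left out, SLC25A28 in 1, AGO3 in 2 and BAG1 and SLC7A11 in 3.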

How the data were processed

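Total RNA of HEK293T cells was measured on 12 Affymetrix arrays, 3 in each of 4 groups. The deposited values are probe set intensity on a linear scale, which the authors made by RMA (per the submitters' processing notes, affy 1.24.2) and which ran from 4.36 to 33219. RMA quantile-normalizes the arrays, so the values do not show total RNA per cell. The values were turned to log2 with nothing added.

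Of 54675 probe sets, 41091 name 1 gene, 1801 several and 11721 none, and 62 are controls. Gene names come from the platform annotation, and 41037 matched the RefSeq gene table by Entrez ID. Of 19775 genes, 10523 had several probe sets. Limma 3.58.1 (R 4.3.3) was run on the 6 arrays with lmFit and eBayes on 4 residual degrees of freedom, and the adjusted p (Benjamini-Hochberg, all genes tested) had to be under 0.05 for a call. The script was tested on simulated data.

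The members and the 36 gene lists were chosen with earlier results of these data known. Named are MED26, MYC, the 15 largest differences each way among called, non-overlapping genes (unnamed, LOC and open reading frame genes passed over) and, from each list, at most 6 of its called members by size; JUN, JUNB, KLF10 and members not called were added after their values were seen.

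Same-numbered arrays of the 2 siRNAs deviated together (correlations of 0.433, 0.167 and 0.169, each over 0.1), although s18074 replicate 2 and s18075 replicate 3 reached 0.190, so the replicate number counts as a pairing and was used as a block in an alternative fit. Further alternatives were the 12-array fit, scalings, filters, variance models, thresholds and arrays left out. The CArG box search and the values of the replicate 1 arrays by themselves were chosen after seeing the data. Arrays give no read depth.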

Additional observations from a re-analysis of the deposited data

How the results depend on the processing

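Among the alternatives listed here, no gene was called with opposite signs in the fit as reported and in the alternative. The number of genes called varied. Larger counts were 1791 genes (856 higher, 935 lower) with the replicate block and all 12 arrays, 1547 (742 higher) with replicate 1 against the rest as a block, 1476 (686 higher) with log2(intensity + 16), 1809 (872 higher, 937 lower) without the dimmest 40% of genes and 1804 (863 higher, 941 lower) with a trended, robust variance. Smaller counts came from replicates 2 and 3 alone, at 298 (73 higher, 225 lower), gene means over all their probe sets, at 536 (228 higher, 308 lower), an adjusted p under 0.01, at 325 (85 higher, 240 lower), and a size of at least 0.5, at 243 (56 higher, 187 lower). Without 1 array, 367 to 607 genes were called, 97 to 237 higher and 270 to 412 lower, and MED26 differed by 0.47 to 0.60. The causes were not tested.

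The replicate block on the 6 arrays called 1071 genes, 805 of them among the 919, and MED26 kept its call (adjusted p = 0.0104). Apart from the calls named in the text as lost with the block, it ended no call of a gene named there. MED26 was no longer called by limma in replicates 2 and 3 alone (0.49) or as the mean of its probe sets (0.30). The share of lower genes with control and s18076 both nearer s18074 was 82.9% for differences of at least 0.5 and 73.8% in replicates 2 and 3. The matching share of higher genes was 62.5% and 53.4%.

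Each value rests on 3 arrays a group, and signal near background limits precision in dim probe sets. The labels name more than 1 siRNA for the control arrays, which were used as 1 group. Whether sequence matches, MED26 level or another property of the siRNAs goes with a difference was not tested.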

Other observations

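Beyond the 15 largest differences each way, some of the next ones were named after their values were seen, and others were passed over. On the lower side DDX56, a nucleolar RNA helicase, read 10.86, 10.67 and 10.71 with s18074 and 9.77, 9.61 and 9.64 with s18075 (-1.08 ± 0.07). MRPS7, a protein of the small mitochondrial ribosomal subunit, read 12.03, 11.99 and 11.97 against 10.94, 10.85 and 10.97 (-1.07 ± 0.06), and AATF, a nucleolar factor, 10.62, 10.46 and 10.54 against 9.63, 9.36 and 9.56 (-1.03 ± 0.08). The homeobox gene ALX1 differed by -1.06 ± 0.05, the TEAD cofactor VGLL3 by -0.97 ± 0.08, the nuclear factor gene NFIX by -0.96 ± 0.08 and the F-box gene FBXW2 by -0.93 ± 0.06. The Golgi-endosome GTPase gene RAB9B differed by -1.04 ± 0.07, the muscle LIM gene PDLIM3 by -1.01 ± 0.07 and the selenoprotein gene SELENOH by -0.93 ± 0.06. In each of these genes control and s18076 lay nearer s18074. All were picked among genes called by limma at an adjusted p under 0.05 (Benjamini-Hochberg). At least 1 further probe set of VGLL3, FBXW2 and SELENOH was also called lower. None was called for DDX56 (-0.01), NFIX (-0.10 to 0.06) or PDLIM3 (-0.12 and -0.10).

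On the higher side CTNNB1, which encodes beta-catenin of the WNT pathway and cell junctions, read 12.76, 12.57 and 12.56 with s18074 and 13.37, 13.24 and 13.30 with s18075 (0.68 ± 0.07). Its control arrays read 13.30, 13.18 and 13.01, but 0 of its 2 further probe sets was called. SPC25, a kinetochore subunit, read 9.51, 9.51 and 9.47 against 10.08, 10.23 and 10.14 (0.65 ± 0.06). The endocytic adaptor genes SH3GL2 and SNAP91 differed by 0.74 ± 0.06 and 0.64 ± 0.07, the methionine sensor SAMTOR, an mTORC1 regulator, by 0.74 ± 0.07 and the amino acid transporter gene SLC36A1 by 0.68 ± 0.08. FAM171A1 differed by 0.66 ± 0.05, the deubiquitinase gene USP37 by 0.65 ± 0.09 and the ephrin receptor gene EPHA6 by 0.61 ± 0.07. They were picked among non-overlapping genes called by limma (adjusted p under 0.05), so neither trait is a further result. A further USP37 probe set was also called higher, while none of SLC36A1 or EPHA6 was called.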
